A study of Mus musculus with 12 samples.

Results

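Lower glycolysis and lactate export were described through 10 genes, chosen by symbol from the authors' deposited table: Aldoa, Tpi1, Gapdh, Pgk1, Pgam1, Eno1, Pkm, Ldha, Ldhb and Slc16a3. All 10 were found among its 11806 genes, and all 10 belonged to the 10963 genes that carry an adjusted p. The genes were picked with results of the same comparison in view, so their values are a description and the list as a whole was not tested. The study set 6 vitrified follicles, that is, cryopreserved as a glass without ice crystals,, against 6 fresh follicles. Each library came from a single ovarian follicle of a CD-1 mouse, an outbred strain, at an age of 16 days. Follicles of both groups had grown for 8 days, each enclosed in 0.5% alginate in a well of 100 µl of medium that held 10 mIU/mL recombinant follicle-stimulating hormone and 5 µg/mL insulin, with 50 µl renewed every other day. The labels give neither the oxygen level of the culture nor which follicles shared a mouse, so the authors' p-values are read as if follicles were independent.

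Glycolysis turns glucose into pyruvate, and its lower part is where ATP is made. Aldolase cuts the hexose into triose phosphates, which are interconverted by triosephosphate isomerase and then oxidised, rearranged and dephosphorylated to pyruvate. Lactate dehydrogenase converts pyruvate and NADH to lactate and NAD+, and monocarboxylate carriers take lactate out of the cell together with a proton. In the ovarian follicle the granulosa cells carry out most of this work and supply pyruvate to the oocyte, which uses glucose poorly by itself. Several of these genes are textbook targets of the hypoxia-inducible factor HIF-1.

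None of the 10 genes passed the threshold of 0.05 on the adjusted p, and 9 of the 10 had a lower value in vitrified than in fresh follicles. The count of called genes was 0 per the authors' deposited table, where 0.529% of all tested genes were called in either direction and 0.283% as lower. An unadjusted p under 0.05 was listed for 2, the lactate exporter gene Slc16a3 and the lactate dehydrogenase gene Ldha, both lower, against 7.02% of all tested genes in either direction and 3.79% lower. A log2 fold change below 0 was listed for 53.2% of all tested genes. The median log2 fold change of the 10 genes was -0.26, and that of all tested genes was -0.02. A whole follicle was lysed for each library, so fewer cells of a type and less RNA per cell cannot be told apart. The table pools the follicles into 1 total per gene, so no level per follicle or per group can be given, nor whether the groups overlap.

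**Figure D1:**
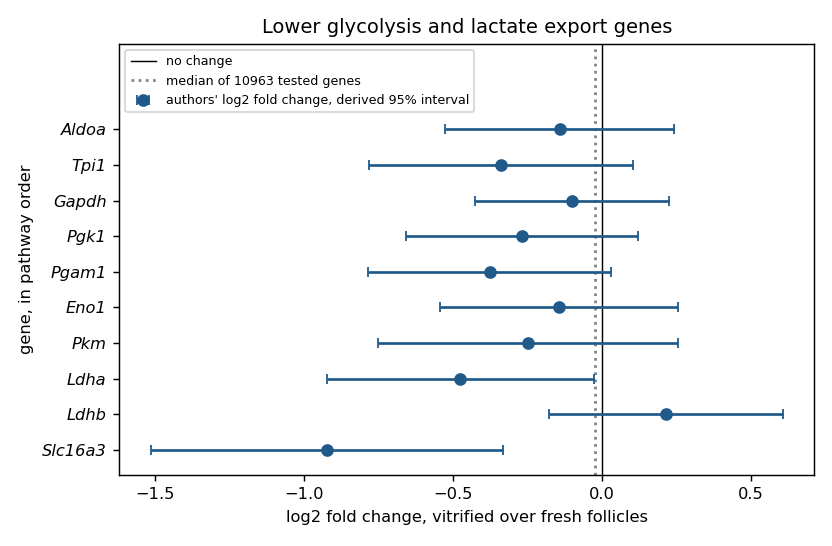
Log2 fold change of vitrified over fresh follicles (x axis) for the 10 genes in pathway order (y axis). Points are the authors' values and bars are 95% intervals derived from the deposited p, the dotted line is the median of all tested genes at -0.02, and the intervals of Ldha and Slc16a3 lie below 0 while 8 others span it.

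The steps from aldolase to pyruvate kinase had small differences, all of 1 sign. Aldoa encodes the muscle-type aldolase and lies on chromosome 7 from 126795234 to 126800751 in GRCm38, the assembly also called mm10, with positions here from GENCODE release M21. In the authors' deposited table Aldoa had a total of 136948 and was 1.10-fold lower in vitrified follicles, a log2 fold change of -0.14. Its 95% interval, derived from the fold change and the p as if the authors' test were a two-sided normal one, ran from -0.53 to 0.24. The triosephosphate isomerase gene Tpi1, on chromosome 6 from 124810586 to 124814296, stood at -0.34 (-0.78 to 0.11), 1.26-fold lower per the authors' deposited table (unadjusted p = 0.14).

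Gapdh encodes the dehydrogenase that oxidises glyceraldehyde 3-phosphate and reduces NAD+, and it lies on chromosome 6 from 125161715 to 125166467. It had the smallest change of the 10 genes per the authors' deposited table, a log2 fold change of -0.10 (-0.43 to 0.23). Pgk1, on chromosome X from 106187100 to 106203699, encodes the phosphoglycerate kinase that makes the first ATP of the pathway. It stood at -0.27 (-0.66 to 0.12), 1.20-fold lower per the authors' deposited table. Pgam1, the gene of phosphoglycerate mutase, lies on chromosome 19 from 41911923 to 41918660. At -0.38 (-0.78 to 0.03) it had the largest change of the enzymes from aldolase to pyruvate kinase per the authors' deposited table, with an unadjusted p of 0.070 and an adjusted p of 0.78.

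Eno1, the gene of the widely expressed enolase, lies on chromosome 4 from 150236721 to 150248879. It was 1.10-fold lower in vitrified follicles per the authors' deposited table, with a log2 fold change of -0.14 (-0.54 to 0.26). Pkm, on chromosome 9 from 59656368 to 59679375, encodes the pyruvate kinases M1 and M2, which the table does not separate. It stood at -0.25 (-0.75 to 0.26), with a total of 78858 per the authors' deposited table. Over these 7 enzymes the log2 fold change ran from -0.38 to -0.10, with a median of -0.25, and each of their intervals included 0.

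The lactate dehydrogenase genes had opposite signs. Ldha encodes the M subunit, which favours making lactate from pyruvate, and lies on chromosome 7 from 46841475 to 46855627. Ldhb encodes the H subunit, which favours the reverse reaction, and lies on chromosome 6 from 142490249 to 142507957. Ldha had a log2 fold change of -0.47 (-0.92 to -0.03) per the authors' deposited table, or 28.0% lower, with an unadjusted p of 0.037 and an adjusted p of 0.66. Ldhb stood at 0.22 (-0.18 to 0.61), or 16.1% higher, at an unadjusted p of 0.28 and an adjusted p of 0.98 per the authors' deposited table. The log2 fold change of Ldha minus that of Ldhb was -0.69, which puts the ratio of Ldha to Ldhb in vitrified follicles at 0.620 of that in fresh ones. Their intervals overlapped, and the difference was not tested because both genes were measured in the same libraries and no values per follicle were used. Ldha was the more abundant, with a total per kilobase of exon 17.2 times that of Ldhb, or 26.0 times by longest transcript, and the pooled Ldha total of 91128 stood beside 2517 for Ldhb per the authors' deposited table.

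Slc16a3 had the largest change of the 10 genes. It encodes the monocarboxylate carrier MCT4, the low-affinity lactate exporter of strongly glycolytic cells, and lies on chromosome 11 from 120948480 to 120960868. In the authors' deposited table its log2 fold change was -0.92 (-1.51 to -0.33), or 47.2% lower in vitrified follicles, with a total of 4200.5, an unadjusted p of 0.0022 and an adjusted p of 0.21. It ranked number 141 from the lowest fold change and number 120 from the lowest p among the 10963 tested genes. The carrier gene Slc16a1, which encodes MCT1 and was part of a list of other carriers, had a log2 fold change of -0.21 (-0.59 to 0.16) per the authors' deposited table. Bsg encodes basigin, the chaperone that brings both carriers to the plasma membrane, and stood at -0.37 (-0.73 to -0.01), with an unadjusted p of 0.047 and an adjusted p of 0.70 per the authors' deposited table. The total per kilobase of exon of Slc16a3 was 2.50 times that of Slc16a1. Emb, the gene of embigin, another carrier chaperone, had a total of only 52.6 and no adjusted p, at 0.86 (-0.20 to 1.91) per the authors' deposited table. The subunit genes of the mitochondrial pyruvate carrier, Mpc1 and Mpc2, stood at 0.14 (-0.46 to 0.74) and 0.05 (-0.66 to 0.76) per the authors' deposited table.

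Most of the 10 genes were measured with better precision than the typical gene. The change each would have needed to be called is its derived error times 3.66, the statistic at the largest unadjusted p among called genes. Errors and cutoff come from the same deposited p-values. A needed change above the listed one therefore only restates that none of the 10 genes was called. The standard error derived on the log2 scale ran from 0.17 for Gapdh to 0.30 for Slc16a3, with a median of 0.29 over all tested genes, and 9 of the 10 genes lay below that median. With these errors a call at the adjusted threshold would have needed a change of at least 1.53-fold for Gapdh, 1.78-fold for Ldha and 2.15-fold for Slc16a3, against listed changes of 1.07-fold, 1.39-fold and 1.89-fold per the authors' deposited table. The 95% interval lay wholly within 2-fold for 9 of the 10 genes, all but Slc16a3, as it did for 69.1% of all tested genes. For these 9 genes the change needed for a call ran from 1.53-fold for Gapdh to 1.92-fold for Pkm. At these errors, a difference smaller than the one a gene needed could not have been called. The deposited p-values hold counting error and the spread between follicles together.

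**Figure D2:**
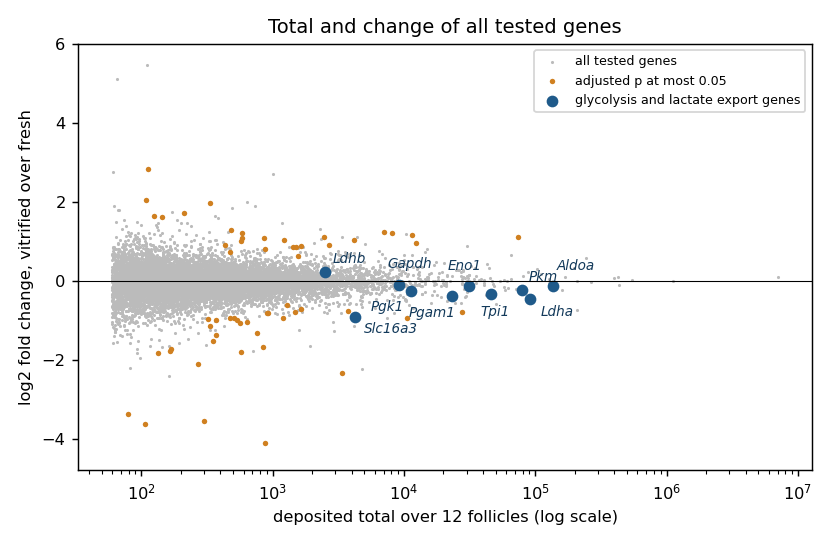
Deposited total over the 12 follicles on a log scale (x axis) against the log2 fold change of vitrified over fresh follicles (y axis) for all tested genes in grey, genes with an adjusted p of at most 0.05 in orange and the 10 glycolysis and lactate export genes in blue. The blue points lie at totals from 2517 to 136948, and 9 of the 10 lie below 0.

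The 10 genes are among the abundant transcripts of these follicles. Their totals per the authors' deposited table ran from 2517 to 136948, against a median of 307 over all tested genes, and took ranks 14 to 777 from the highest. Together they held 1.83% of the summed total of the table. Levels of different genes can be compared only per length. The total per kilobase of exon was 36913 for Aldoa, 27531 for Ldha, 16806 for Tpi1, 15769 for Pkm, 11671 for Pgam1, 5838 for Eno1, 5006 for Pgk1, 2201 for Gapdh, 1603 for Ldhb and 789.9 for Slc16a3. Aldoa and Ldha thus headed the order, and Gapdh came after the other glycolytic enzymes. Divided by the longest transcript instead of all exons, Pkm came before Tpi1 and Eno1 before Pgam1. No error can be given for a pooled total, so neighbours in this order cannot be said to differ.

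Gapdh and Eno1, low in that order, share long stretches of sequence with other genes of the same table. Many glycolysis genes have retrocopies, that is, processed pseudogenes made by copying the messenger RNA back into the genome, and reads from identical stretches cannot be assigned to 1 locus. Of the 50-base windows of the Gapdh transcripts, taken every 25 bases, 55.4% occur in a transcript of another gene. The same held for 62.7% of the windows of Pgk1, 54.8% of Pgam1, 48.7% of Eno1, 31.7% of Pkm, 20.3% of Ldhb, 17.0% of Ldha, 11.2% of Aldoa, 8.57% of Tpi1 and 0% of Slc16a3. The following window, bases 976 to 1025 of the longest annotated Gapdh coding sequence counted from its first base, is printed as an example of a widely shared one. It occurs in 67 other annotated genes, 38 of them listed in the table.
Gapdh coding window: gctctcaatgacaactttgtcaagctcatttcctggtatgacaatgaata

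For Gapdh, 87 such genes were listed per the authors' deposited table, with a summed total of 69460.0, which is 7.63 times the total of 9098 listed under Gapdh itself. A listed gene was counted here if it holds at least 1 of the windows and is annotated as a pseudogene, or if it holds at least 5% of them, a rule chosen after the values were seen. Gapdh thus held 11.6% of the summed total of itself and the genes that share its sequence. The pseudogenes Gm7336, Gm13394 and Gm12070 had totals of 27514, 16800.3 and 13838 per the authors' deposited table, each above that of Gapdh. Eno1 held 17.7%, and its retrogene copy Eno1b had a total of 127861, against 31400 under Eno1, per the authors' deposited table. For Pgk1 the share was 53.1%, with totals of 5111 for Pgk1-rs7 and 4811 for Gm5537 per the authors' deposited table. Pkm held 86.7%, Ldhb 87.7%, Pgam1 87.9%, Ldha 94.9%, Aldoa 98.8% and Tpi1 99.9%, and no listed gene shares a window with Slc16a3. Added up with these genes and divided by the exon length of the gene itself, the total per kilobase came to 32909 for Eno1 and 19007 for Gapdh. By longest transcript of the gene itself the sums came to 87331 and 23885. Eno1b alone stood at 68120 per kilobase of its own exons, above 36913 for Aldoa. The place of Eno1 with its copies in the order thus depends on the length used. The totals and fold changes listed under Gapdh, Eno1, Pgk1 and Pgam1 are therefore uncertain, and whether the reads listed under the pseudogenes come from their own transcripts was not tested.

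**Figure D3:**
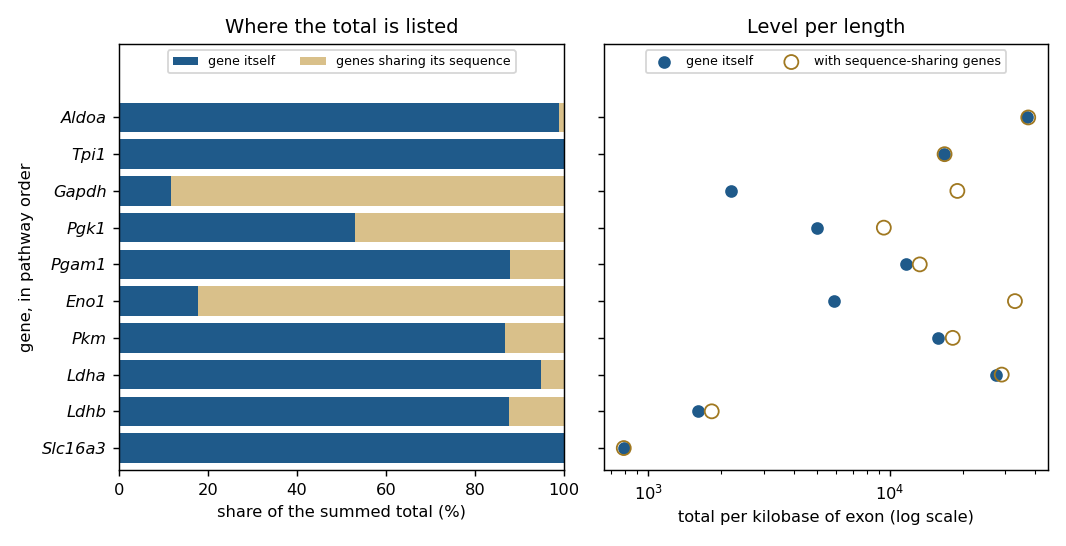
Left, the share in % (x axis) of the summed total that the table lists under each of the 10 genes (blue) and under genes that share its sequence (tan), in pathway order (y axis). Right, the total per kilobase of exon on a log scale for the gene itself (blue points) and with the sequence-sharing genes added (open circles). Both are divided by the exon length of the gene itself. Gapdh, at 11.6%, and Eno1, at 17.7%, hold the smallest shares of their sums.

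The fold changes of the sequence-sharing genes lay on both sides of 0, some near and some far from those of the genes they resemble. Of the 115 listed, 100 had an adjusted p and 0 passed the threshold, with 67 of the 100 lower in vitrified follicles and 5 at an unadjusted p under 0.05 per the authors' deposited table. Over all tested genes these shares were 53.2% and 7.02%. For Gapdh, 45 of its 74 tested sequence-sharing genes were lower, with a median log2 fold change of -0.09, beside -0.10 for Gapdh. The tested ones ran from -1.10 for Gm10313 (unadjusted p = 0.038) to 1.31 for Gm7985 (unadjusted p = 0.015) per the authors' deposited table, at low totals of 65.9 and 71.0. Gm7336, Gm13394 and Gm12070, with totals above that of Gapdh, stood at -0.06 (-0.43 to 0.32), -0.25 (-0.57 to 0.07) and -0.13 (-0.46 to 0.20) per the authors' deposited table. Eno1b stood at -0.06 (-0.43 to 0.30), and the pseudogene Gm4735 at 0.16 (-0.34 to 0.65), against -0.14 for Eno1, per the authors' deposited table. For Ldha all 8 were lower, with a median of -0.23, beside -0.47 for Ldha, and the pseudogene Gm5452 stood at -0.67 (-1.13 to -0.21) with an unadjusted p of 0.0047 and an adjusted p of 0.28 per the authors' deposited table. Pgam1-ps2 stood at -0.59 (-1.02 to -0.15), and Pgk1-rs7 and Gm5537 at -0.32 (-0.77 to 0.12) and -0.42 (-0.81 to -0.04) per the authors' deposited table. The pseudogene Gm5514 stood at -0.37 (-0.89 to 0.16) per the authors' deposited table, on the other side of 0 from Ldhb. Whether reads of the 10 genes are counted in these values was not tested, so they are not taken as independent of them. Annotated genes on the opposite strand overlap exons of Aldoa, Tpi1 and Gapdh by 25, 34 and 68 bases, and Gm49759 lies within Pkm on its strand and overlaps 767 of its exonic bases, so reads there are uncertain too.

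**Figure D4:**
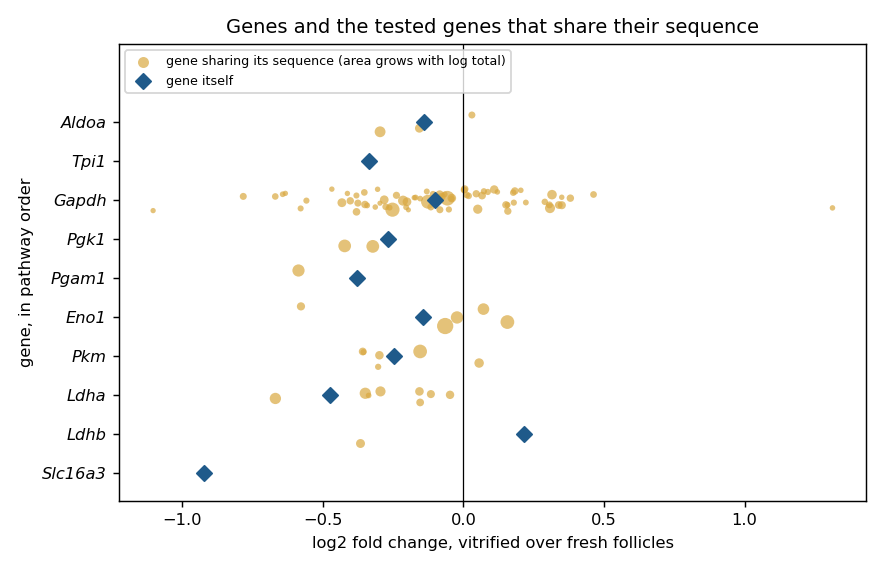
Log2 fold change of vitrified over fresh follicles (x axis) for the 10 genes (blue diamonds, y axis in pathway order) and for the tested genes that share their sequence (tan points, larger for a higher total). The 8 points of Ldha lie below 0, and those of Gapdh lie on both sides of 0 with a median of -0.09.

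Other isozymes of the same steps and related enzymes were scarce apart from Eno1b. Of a list of 12 such genes, 5 were found and tested, with a median log2 fold change of -0.06. The isozyme genes Aldoc, Eno2 and Eno1b were the 3 lower ones, and the related genes Bpgm and Ldhd the 2 higher ones. None was called (0 of 5), and 0 had an unadjusted p under 0.05. The aldolase C gene Aldoc had a total of 741 and stood at -0.12 (-0.63 to 0.40) per the authors' deposited table. The neuronal enolase gene Eno2 had a total of 106 and stood at -0.87 (-1.90 to 0.17) per the authors' deposited table. Bpgm, whose enzyme diverts a glycolytic intermediate to 2,3-bisphosphoglycerate, stood at 0.38 (-0.13 to 0.89) and the D-lactate dehydrogenase gene Ldhd at 0.53 (-0.23 to 1.29) per the authors' deposited table.

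Around this stretch of the pathway, calls were found upstream and among other hypoxia targets. Of 12 tested genes of glucose entry and upper glycolysis, 7 were lower, and the median was -0.09. An adjusted p of at most 0.05 was listed for 3 of them, all lower, against 0.283% of all tested genes called as lower. They were the glucose transporter gene Slc2a1, the hexokinase gene Hk2 and Pfkfb3, a regulator of phosphofructokinase. Slc2a1 stood at -1.81, Hk2 at -1.72 and Pfkfb3 at -0.99 per the authors' deposited table, each further from 0 than Slc16a3. Of 13 tested hypoxia targets outside glycolysis, 12 were lower, with a median of -0.44. Beside the same 0.283% of all tested genes, 2 were called, both lower. These were the adenylate kinase gene Ak4 at -1.68 and Ero1l, a gene of disulfide bond formation, at -0.81 per the authors' deposited table (adjusted p = 2.8e-04 and adjusted p = 0.0076). A list of transcription factors of the hypoxia response and their regulators had 8 of 11 higher, a median of 0.13 and 0 called. Over all tested genes, 53.2% were lower. The regulator genes Egln1 and Egln3 were lower, at -0.76 (-1.77 to 0.25) and -1.02 (-2.44 to 0.39), with low totals of 84.5 and 74.7. Factors and regulators are mixed in this list, so its count of signs has no single reading. Epas1, which encodes HIF-2 alpha, stood at 0.66 (0.03 to 1.30) with an unadjusted p of 0.040 per the authors' deposited table, and no other of these 11 genes had an unadjusted p under 0.05. If a t distribution with 10 degrees of freedom is used instead of the normal, 0 genes of the whole table were called, these 5 included.

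Downstream, the fates of pyruvate and NADH gave no called gene. Of 11 tested genes of the pyruvate dehydrogenase complex, its kinases and phosphatases and pyruvate carboxylase, 5 were lower and 6 higher, with a median of 0.01. The kinase gene Pdk3 had the lowest p of these, at -0.36 (-0.74 to 0.03) per the authors' deposited table. Branches that leave from the hexose and triose phosphates, such as the pentose phosphate and serine pathways, had 6 of 12 lower and a median of 0.02, and the serine pathway gene Phgdh stood at -0.65 (-1.30 to 0.01) per the authors' deposited table. A list of malate, aspartate and glutamate shuttle genes together with the citrate and dicarboxylate carrier genes Slc25a1 and Slc25a10 had 7 of 9 lower and a median of -0.09, with the carrier gene Slc25a13 at -0.40 (-0.86 to 0.05) per the authors' deposited table. At an unadjusted p under 0.05 these 3 lists held 0 genes. No difference between any of these lists and the 10 genes was tested.

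**Figure D5:**
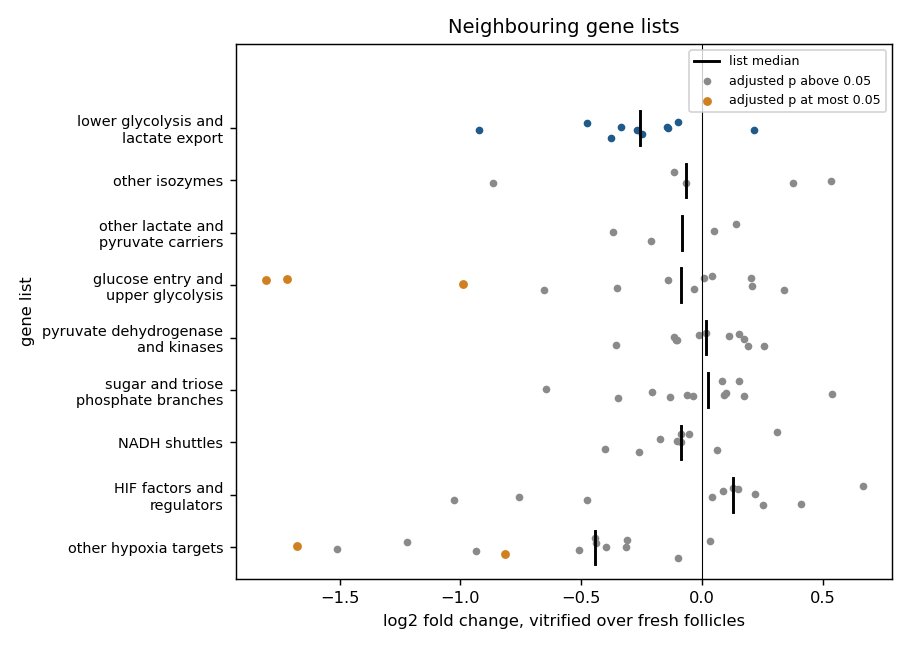
Log2 fold change of vitrified over fresh follicles (x axis) for the tested genes of each list (y axis), with the list median as a black bar and genes with an adjusted p of at most 0.05 in orange. The median lies at -0.26 for the 10 genes, -0.09 for glucose entry and upper glycolysis and -0.44 for other hypoxia targets.

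The promoters of Slc16a3, Ldha and Ldhb are shown because their listed changes differ most among the 10 genes, so the choice rests on these same values. The HIF-1 core letters are often looked for in promoters. Each sequence is the 250 bases before a RefSeq transcription start, from RefSeq in GRCm38.p6, 5′ to 3′ on the strand of the gene, and capitals mark ACGTG or GCGTG on either strand, also read as CACGT or CACGC. Slc16a3 lies on the plus strand, at chr11:120948817-120949066. Ldha, also on the plus strand, has starts after chr7:46845554-46845803 and chr7:46846832-46847081. Ldhb lies on the minus strand, at chr6:142507958-142508207.
Slc16a3: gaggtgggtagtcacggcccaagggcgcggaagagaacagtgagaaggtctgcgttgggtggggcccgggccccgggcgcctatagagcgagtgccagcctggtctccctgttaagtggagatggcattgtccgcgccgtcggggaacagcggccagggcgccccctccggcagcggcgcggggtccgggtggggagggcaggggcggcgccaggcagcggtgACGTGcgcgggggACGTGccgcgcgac
Ldha, first start: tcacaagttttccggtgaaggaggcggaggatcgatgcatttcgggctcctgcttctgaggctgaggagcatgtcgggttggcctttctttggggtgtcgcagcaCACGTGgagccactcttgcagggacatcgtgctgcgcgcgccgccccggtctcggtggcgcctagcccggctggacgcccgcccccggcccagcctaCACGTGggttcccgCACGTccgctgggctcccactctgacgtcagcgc
Ldha, second start: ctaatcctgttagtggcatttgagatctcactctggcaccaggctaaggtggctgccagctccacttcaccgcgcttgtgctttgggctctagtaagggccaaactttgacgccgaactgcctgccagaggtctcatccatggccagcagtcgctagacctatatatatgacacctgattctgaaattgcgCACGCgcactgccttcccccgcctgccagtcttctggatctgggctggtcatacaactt
Ldhb: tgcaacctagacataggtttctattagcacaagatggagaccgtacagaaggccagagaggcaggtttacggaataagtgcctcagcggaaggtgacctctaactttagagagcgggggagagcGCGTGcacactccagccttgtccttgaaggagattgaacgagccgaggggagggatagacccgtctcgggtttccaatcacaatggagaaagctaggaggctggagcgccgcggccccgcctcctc

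Slc16a3 had 2 matches, 27 and 14 bases before the start, and Ldhb had 1. The first Ldha window had 5 matches, of which 4 fall in 2 copies of the E-box letters CACGTG, where both strands match, and the second window had 1. Among the genes not printed, Pgam1 had 3 matches, and Pgk1 and Gapdh, the gene with the smallest change, had 2 each. The windows of Eno1 had 1 to 2, and those of Aldoa and Pkm 0 to 1. All 10 genes were matched to RefSeq by symbol, with 16 windows in all, of which 13 held at least 1 match, in 9 of the 10 genes. Tpi1 had none in its only window, and its log2 fold change was -0.34 (-0.78 to 0.11). Whether matches go with the changes of the 10 genes was not tested. At least 1 match was found in 38.6% of 32851 RefSeq windows and, for tested genes, in some window of 63.8% of 8052 matched genes. These windows and matched genes leave out 1 chromosome. The median log2 fold change was -0.02 both for tested genes with and for those without a match. A match is only a run of letters and is not a measured binding site.

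Lists of cell type markers were read as a rough guide to the cells present. Totals pooled over the follicles cannot show which cells each library held, and whether each gene marks only 1 cell type was not tested. Of 15 granulosa markers, 14 were in the table, with totals from 122 to 1121843, and 8 were lower and 6 higher, with a median of -0.02. The oocyte list had 10 of 17 genes in the table, with totals from 49.2 to 369, and all 8 tested ones were higher, with a median of 0.71. The theca list had 9 of 12 tested genes higher and a median of 0.44, at totals from 68.4 to 435485. The endothelial list had 6 of 6 lower and a median of -0.97, at totals from 46.1 to 1912. Of 8 immune markers, 1 was listed, Lyz2, at -1.05 per the authors' deposited table, and of 6 red blood cell markers 0 were listed. The count of called genes was 0 in each of these lists, against 0.529% of all tested genes. At an unadjusted p under 0.05 the theca list held 4 higher genes and 1 lower, against 7.02% of all tested genes. The granulosa list held 1 higher, Fshr at 0.67, and 2 lower, Fst at -0.82 and Inhbb at -0.57. The immune list held Lyz2, and the oocyte and endothelial lists held 0. The part of these shifts in the values of the 10 genes was not tested.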

How the data were processed

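RNA of 12 single follicles was measured by Smart-seq libraries, per the labels' protocols. Tools listed in the submitters' processing notes are Bowtie2, HISAT2, Partek and DESeq2, with the build mm10 and no version or role. Annotation, counting rule, strand use and the handling of reads with several matches are not stated there. The authors deposited 1 table with a total count pooled over libraries, a p-value, a step-up adjusted p, a signed fold score and a log2 fold change per gene. A total within 0.001 of a whole number was found for 0.237% of genes, so no count model was run, and depth per follicle is unknown here. The adjusted p is missing for 843 genes of low total.

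The planned count model needs values per follicle, so the authors' test was used, at 0.05. Replicates are follicles, whose mice the labels do not name, so the p-values cannot be read as a spread between mice. They hold counting error together with the spread between these follicles. From each deposited log2 fold change and p-value, a normal statistic, standard error and 95% interval were derived with SciPy 1.17.1 in Python 3.11.15. The step was run on data simulated under the same normal assumption. That run checks the arithmetic only and cannot show whether the authors' test was a normal one. Lengths and windows of 50 bases came from GENCODE M21. Genes and lists were chosen with earlier results of these data known. Named genes are the 10 genes and all listed isozymes, related enzymes and carriers. From other lists, those called or up to 3 with the lowest p are named. With no values per follicle, no gene was named for a like pattern. Listed pseudogenes, Slc25a1, Slc25a10 and the reference genes Eef1a1, Rplp0 and Sdha were chosen for naming after values were seen. Alternatives changed the reference distribution, filter, threshold, centring, summary and gene length. One gene of the reference gene list is not reported here.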

Additional observations from a re-analysis of the deposited data

How the results depend on the processing

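The count of called genes among the 10 was 0 with the authors' test, with no filter on totals, with a total of at least 120, at a threshold of 0.1 and with a t distribution of 10 degrees of freedom. Of all genes, 58 were called with the authors' test, 58 with no filter, 57 with a total of at least 120 and 78 at 0.1. With so few called in the whole table, a count of 0 among 10 genes says little. The t distribution left 0 called genes in the whole table. It left 1 of the 10 genes at an unadjusted p under 0.05, Slc16a3 at 0.012, with Ldha at 0.064. The median log2 fold change was -0.24 and -0.25 under the 2 centrings and -0.25 both without the 3 genes of at least 50% shared windows and without Slc16a3, the last chosen after seeing the data. A mean in its place gave -0.28 and a mean weighted by the derived errors -0.22, and the 9 lower values stayed 9 under both centrings. None of the 10 genes changed sign under these centrings (0 of 10). The centrings subtract the median of all tested genes, -0.02, or running medians of genes of like total, from -0.04 to 0.003. The smallest change of the 10 genes was -0.10, for Gapdh. No sign could have changed, so these counts do not test how firm the signs are. The median total per kilobase was 8754 by exons and 14262 by longest transcript, since the longest transcript is shorter than all exons together. No paired analysis was possible because the table holds no values per follicle, so that leaving out follicles, DESeq2 or edgeR in its place and a filter on low counts were not run either. The derived error of the 10 genes was 0.21 in the median, and how much of it is due to depth cannot be told apart from the spread between follicles.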

Other observations

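Gapdh and Pgk1 are also widely used as reference genes for quantitative PCR. Among 18 such genes, fixed as a list with earlier results known, 10 were lower and 8 higher in vitrified follicles, with a median log2 fold change of -0.02. Ordered by the size of their change per the authors' deposited table, Gapdh was number 11 and Pgk1 number 14 of the 18. The translation factor gene Eef1a1 and the ribosomal gene Rplp0 had log2 fold changes under 0.01 in size, at 0.0030 (-0.36 to 0.37) and -0.0029 (-0.40 to 0.39) per the authors' deposited table. The succinate dehydrogenase gene Sdha, a reference gene of mitochondrial metabolism, stood at 0.09 (-0.15 to 0.33) per the authors' deposited table. The widest changes were those of the transferrin receptor gene Tfrc at -1.03 (-1.62 to -0.44) and the TATA-binding protein gene Tbp at 0.64 (0.19 to 1.09) per the authors' deposited table. None of the 18 passed the adjusted threshold (0 of 18), and these 2 had an unadjusted p under 0.05.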
